A study of Saccharomyces cerevisiae with 6 samples.

Results

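The genes described here are 10 budding yeast (Saccharomyces cerevisiae) genes that reduce sulfate, build methionine and pass on its methyl group: MET3, MET14, MET16, MET2, MET17, MET6, MET13, SAM1, SAM2 and SAH1. They were taken by name from a list of pathway genes, each was found as an entry of its own among 6932 in the authors' table, and all 10 were among the 6153 entries compared. RNA was sequenced from cultures 4 h into meiosis, for WT, for bas1 mutants and for ino4 mutants, each with 2 samples. All cultures were grown in acetate medium and moved to 2% potassium acetate at 30 °C to sporulate. The labels name the genotypes without strain background, alleles, markers or ploidy, so what the strains share beyond this is not given in the sources used here. Bas1 is a Myb-related activator of purine and histidine synthesis genes, and Ino4, a partner of Ino2, is a helix-loop-helix activator of phospholipid synthesis.

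Yeast reduces sulfate to sulfide in steps, joins the sulfide to O-acetylhomoserine to make homocysteine, and methylates homocysteine with a folate-borne methyl group to make methionine. S-adenosylmethionine synthetase turns methionine into the methyl donor of the cell, and the S-adenosylhomocysteine left after each methyl transfer is split again into homocysteine and adenosine. In yeast the sulfate and methionine genes are classically activated by Met4 with Cbf1, Met31 and Met32, and the methylation of phosphatidylethanolamine to phosphatidylcholine is a large use of S-adenosylmethionine.

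The authors' table holds 1 FPKM value per gene and genotype (sequenced fragments per kilobase of a gene, relative to all that were mapped). How far replicate samples differ is therefore unknown, no difference below has a replicate check or a test, and the depth behind a value is unknown. Differences are on the log2(FPKM + 1) scale, on which changes of low genes come out too small. Folds are FPKM divided by FPKM. A difference of 1 or more in size on that scale is called 2-fold here. The labels were checked on the targeted genes. In bas1 the BAS1 level was 0.00985 FPKM, against 19.4 in WT and 21.1 in ino4. In ino4 the INO4 level was 0.339 FPKM, against 307 in WT and 271 in bas1. Early meiotic genes were present in all genotypes, with none of 10 at 0. The furthest from WT was IME2, with 1841 FPKM in WT, 2511 in bas1 and 1834 in ino4. In WT they ranged from an FPKM of 83.9 (SPO11) to 7919 (IME1), and their summed FPKM was 19030 in WT, with 20716 in bas1 and 18064 in ino4.

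SAM2 was 4.63-fold lower in ino4 than in WT while its paralog SAM1 was not lower. SAH1 was lower in ino4 as well, at 1.92-fold, and 1.46-fold higher in bas1. MET17 was 2.12-fold lower in bas1, where SAM1 was 1.48-fold lower and MET16 was 1.56-fold higher. In ino4, MET3 was 1.68-fold higher and MET2 was 1.52-fold higher. The remaining genes, MET14, MET6 and MET13, stayed within 1.32-fold of WT in both mutants.

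In bas1, 1 of the 10 genes (MET17) was 2-fold or more below WT and 0 were 2-fold or more above it. Over all entries compared, the background was 2.34% lower and 0.975% higher. In ino4, 1 of the 10 (SAM2) was below WT by this rule and 0 were above, against a background of 1.76% lower and 0.683% higher. Between the mutants, SAM2 and SAH1 passed the rule as higher in bas1 and MET17 as lower, against 2.78% of all entries in each direction. With 10 genes these counts are small numbers, and the members were chosen with earlier results of these data known, so nothing particular to the group is read from them. The median difference of the 10 was 0.16 in bas1 and 0.17 in ino4, beside 0.0051 and -0.0031 over all entries. Without MET17 and MET2, whose entries share a position with another, the ino4 median was 0.027. Both comparisons use the same WT values.

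**Figure D1:**
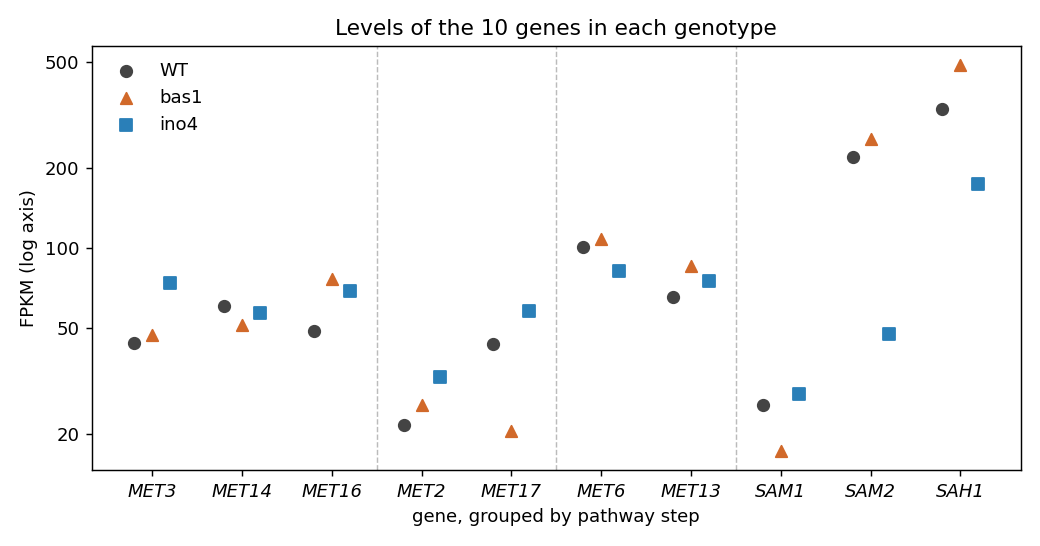
FPKM on a log axis for the 10 genes, 1 point per gene and genotype, each the authors' combined value. Dashed lines part the sulfate reduction genes, the sulfide incorporation genes, the homocysteine methylation genes and the S-adenosylmethionine genes. SAM2 lies at 220 in WT and 47.4 in ino4, while SAM1 lies between 17.3 and 28.3 in the 3 genotypes.

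Levels differed widely within the pathway. In WT the order of FPKM from high to low was SAH1, SAM2, MET6, MET13, MET14, MET16, MET3, MET17, SAM1 and MET2, a 15.3-fold range from 332 to 21.7. MET14, MET16, MET3 and MET17 lay between 60.6 and 43.7, and without replicate values it cannot be said which of these neighbours differ. The median FPKM of all compared entries was 53.5 in WT, and 5 of the 10 genes lay above it. In bas1 the range was 28.1-fold, from SAM1 at 17.3 to SAH1 at 485. In ino4 it was 6.13-fold, from SAM1 at 28.3 to SAH1 at 173. SAH1 was the highest of the 10 in all 3 genotypes. SAM2 was second in WT and bas1 and eighth in ino4. Summed over the 10 genes, FPKM was 961 in WT, with 1173 in bas1 and 696 in ino4, of which SAH1 alone was 34.5%, 41.3% and 24.9%.

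SAM1 and SAM2 encode the paralogous S-adenosylmethionine synthetases. SAM2 (YDR502C, sacCer2 chromosome IV, 1453303 to 1454457) stood at 220 FPKM in WT, at 256 in bas1 and at 47.4 in ino4. SAM1 (YLR180W, chromosome XII, 515264 to 516412) had 25.6 in WT, with 17.3 in bas1 and 28.3 in ino4. SAM2 was thus low in ino4 alone, and SAM1 was lowest in bas1. The log2 difference of SAM2 in ino4 was -2.19, and only 5 of the 6153 entries were lower in that comparison. SAM1 differed by 0.14 in ino4, and 1686 entries had a higher value. Neither neighbour of SAM2 differed to a like extent. PLM2 had a log2 difference of 0.28 in ino4 and LPP1 had -0.23. SAM1 differed by -0.54 in bas1. Its neighbour YLR179C moved the same way as SAM1, by -0.40 in bas1 and 0.31 in ino4. VTA1, on the other side, had -0.12 and -0.07. Of 7 haploid mating genes, 6 had an entry of their own and none was at 0, and their median difference in ino4 was -0.04. STE2, STE3 and STE4 were lower in ino4 (-0.10, -0.58 and -0.26), and FUS3 differed by 0.02. MFA1 and MFA2, which have very short entries, were higher (0.86 and 1.33). Of the 6 only MFA2 passed the 2-fold rule in ino4, against 0.683% of all entries higher. Their summed FPKM, most of it from MFA1, was 483 in WT, with 386 in bas1 and 841 in ino4. Their part in the SAM2 difference was not tested.

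The paralogs thereby came close to each other in ino4. SAM2 was 8.58-fold above SAM1 in WT, with 14.8-fold in bas1 and 1.68-fold in ino4. SAM2 made up 89.6% of the summed FPKM of the pair in WT, with 93.7% in bas1 and 62.7% in ino4. Their sum, which depends little on how shared reads were split between them, was 245 in WT, with 273 in bas1 and 75.7 in ino4. The sum was 3.24-fold lower in ino4 than in WT and 1.11-fold higher in bas1.

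The reading frames are 83.5% identical over 1148 aligned bases in the RefSeq assembly R64, with a longest identical run of 59 bases. Of all 30-base words in SAM1, 5.36% also occur elsewhere in that genome, and 5.33% of those in SAM2 do. None of the words of the other 8 genes does. Reads from the shared words can be credited to either paralog, and neither the handling of such reads nor their length is given in the sources used here. SAM1 was 1.10-fold higher in ino4, the genotype in which SAM2 was lowest.

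Other pairs of related genes in the pathway shifted less in ino4. The log2 ratio of SAM2 to SAM1, with 1 added to each FPKM, was 3.05 in WT and 0.73 in ino4, a shift of -2.33. For SAM3 and MMP1, transporters of S-adenosylmethionine and S-methylmethionine, the ratio shifted by -0.55. For the sulfate transporter genes SUL2 and SUL1 the shift was 0.06, for the methylenetetrahydrofolate reductase genes MET13 and MET12 -0.06, for the methionine permease genes MUP1 and MUP3 -0.14, for the homocysteine methyltransferase genes SAM4 and MHT1 0.06, and for the regulator genes MET32 and MET31 0.27. In bas1 the SAM2 to SAM1 ratio shifted by 0.76, MET32 to MET31 by 0.64 and MUP1 to MUP3 by 0.58, so the pair did not stand out there by size.

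**Figure D2:**
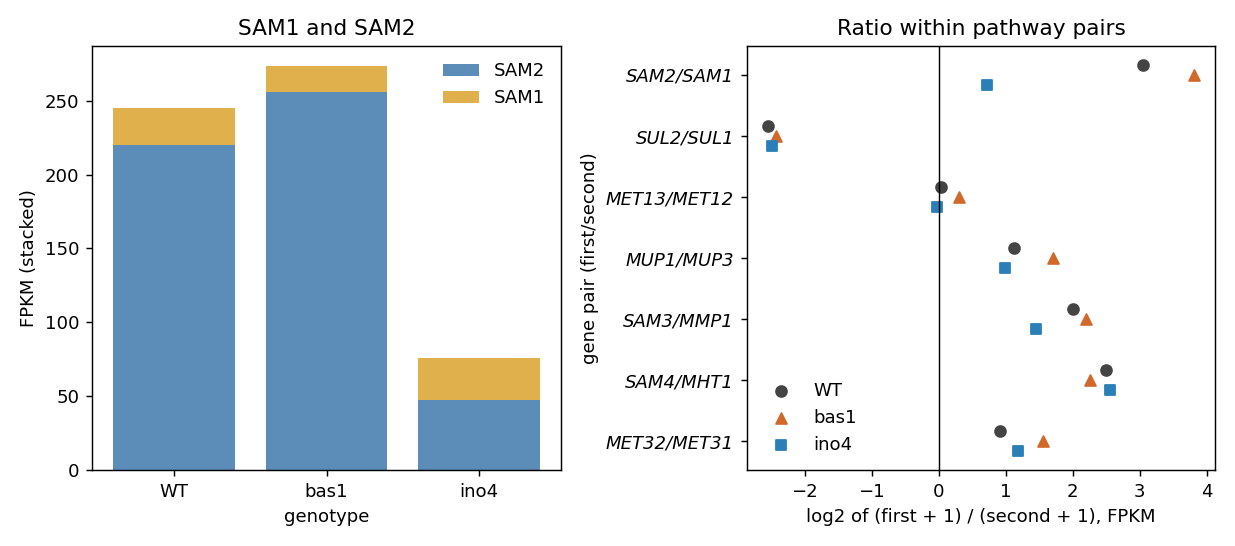
Left, FPKM of SAM2 and SAM1 stacked for each genotype, with totals of 245, 273 and 75.7. Right, log2 of the FPKM ratio (1 added to each value) within 7 pathway pairs, 1 point per genotype. The point for SAM2/SAM1 moves from 3.05 in WT to 0.73 in ino4, and for the other pairs the 3 genotypes lie closer together.

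SAH1 encodes S-adenosylhomocysteine hydrolase, the enzyme that removes the product of methyl transfer (YER043C, chromosome V, 235769 to 237118). Its FPKM was 332 in WT, with 485 in bas1 and 173 in ino4. SAH1 was therefore highest in bas1 and lowest in ino4, with WT between, and the mutants were 2.80-fold apart. The log2 differences were 0.55 in bas1, with 291 entries higher, and -0.93 in ino4, with 125 entries lower. The latter lies just inside the 2-fold rule. Its neighbours MXR1 and ERG28 had 0.07 and 0.24 in ino4 and -0.07 each in bas1. The SAH1 level was 1.35 times the summed SAM1 and SAM2 level in WT, 1.77 times in bas1 and 2.29 times in ino4.

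Middle sporulation genes were also mostly highest in bas1, and all were lowest in ino4. Of 19 such genes 18 were higher in bas1 than in WT, 5 of them past the 2-fold rule (CDC5, SPS1, SSP1, SPO21 and SPO77). All 19 were lower in ino4, 4 of them past the rule (SPS1, SPS2, SPS4 and SSP2). Over all 6153 entries, 3112 were higher in bas1 and 3111 were lower in ino4. By the 2-fold rule, 0.975% of all entries were higher in bas1 and 1.76% lower in ino4. The median differences of the 19 genes were 0.88 and -0.50, and none was at 0. Their summed FPKM was 4570 in WT, with 7856 in bas1 and 2662 in ino4. By the distance of its differences from WT in both mutants, the entries most like SAH1 were GIP1, which is needed to form the spore wall, YGR273C, YEL023C, YFR012W and SPR6, at distances of 0.11, 0.14, 0.15, 0.17 and 0.18 among 4191 candidates. GIP1 stood at 42.0 FPKM in WT, at 66.6 in bas1 and at 22.0 in ino4. The part that the stage of the cultures had in the SAH1 and SAM2 differences was not tested. In these bulk cultures, fewer cells at a stage and less RNA per cell cannot be told apart.

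SAM2 had no entry close to it among 4191 candidates. The nearest were the small nucleolar RNA gene SNR68, GAT4, the choline transporter gene HNM1, YOR214C and YGL230C, at distances from 0.54 to 0.72. HNM1 stood at 284 FPKM in WT, at 266 in bas1 and at 89.8 in ino4. SNR68 had 39.8, 38.6 and 11.4, and YGL230C had 53.4, 55.3 and 18.4. GAT4 (21.3, 32.6 and 5.68) and YOR214C (746, 1222 and 221) were higher in bas1 than in WT as well as lower in ino4. What these likenesses rest on was not tested. Only 5 of all entries were lower than SAM2 in ino4, so few lie in its range, and large distances follow from its value alone. The fifth nearest entry to SAM1, whose differences were smaller in size in ino4, lay at 0.03. The nearest to SAM1 were QRI5, the meiotic recombination gene SAE3 and POP5.

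**Figure D3:**
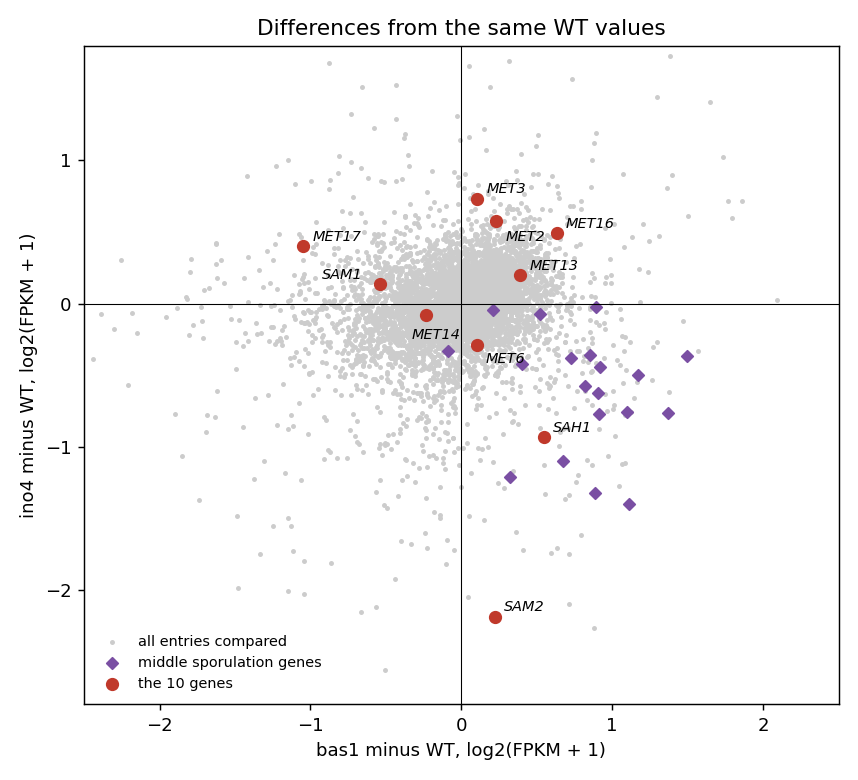
Difference from WT in log2(FPKM + 1) for bas1 (horizontal) and ino4 (vertical), which share the WT values. Grey points are the entries compared (19 lie outside the axes), purple diamonds 19 middle sporulation genes and red points the 10 genes. SAM2 lies at 0.22 and -2.19, SAH1 at 0.55 and -0.93 beside the middle sporulation genes, and MET17 at -1.05 and 0.40.

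Among 12 methyltransferase genes that use S-adenosylmethionine, those of phosphatidylcholine synthesis were low in ino4 as SAM2 was. OPI3 stood at 1496 FPKM in WT, at 1051 in bas1 and at 252 in ino4. CHO2 had 112, 88.7 and 34.4. They were the only 2 of the 12 at least 2-fold lower in ino4, against 1.76% of all entries, and the list's median difference was 0.03. The part that the stage of the cultures had in the OPI3 and CHO2 differences was not tested either. The sterol methyltransferase gene ERG6 had 677 in WT and 692 in ino4. The summed CHO2 and OPI3 level was 6.55 times the summed SAM1 and SAM2 level in WT, 4.17 times in bas1 and 3.79 times in ino4. In bas1 0 of the 12 were 2-fold apart from WT, and the list's median was 0.04. Over all entries, 0.975% were higher and 2.34% lower in bas1.

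MET6 and MET13 act on the methyl group of methionine. MET6, the methionine synthase gene (YER091C, chromosome V, 339860 to 342163), stood at 101 FPKM in WT, at 108 in bas1 and at 82.0 in ino4. MET13, a methylenetetrahydrofolate reductase gene that supplies the folate methyl donor (YGL125W, chromosome VII, 272526 to 274328), had 65.1 in WT, with 85.8 in bas1 and 74.9 in ino4. MET6 was lowest in ino4, whereas MET13 was lowest in WT, and all differences were small. Those of MET6 were 0.10 in bas1 and -0.29 in ino4, and those of MET13 were 0.39 and 0.20. MET12, the other reductase gene, had 63.4 in WT, with 69.2 in bas1 and 76.2 in ino4. ADO1, the adenosine kinase gene that clears the adenosine released by Sah1, had 199, 182 and 217, and was highest in ino4.

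The sulfide step is made by MET2 and MET17. MET17 encodes O-acetylhomoserine sulfhydrylase, which joins sulfide to the carbon chain (YLR303W, chromosome XII, 732193 to 733878). Its FPKM was 43.7 in WT, with 20.6 in bas1 and 57.9 in ino4. MET17 was lowest in bas1 and highest in ino4, and the mutants were 2.81-fold apart. The log2 difference in bas1 was -1.05, at the edge of the 2-fold rule, with 121 entries lower. It was 0.40 in ino4. With a pseudocount of 5 the bas1 difference was -0.93, inside the rule.

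MET17 is listed at the same position as YLR302C, and the listed stretch is 351 bp longer than the MET17 gene in RefSeq. YLR302C stood at 0.920 FPKM in WT, at 2.72 in bas1 and at 1.12 in ino4. No source used here says whether strand was used in counting, and reads of the overlapping entries may not have been told apart. MET2, the homoserine O-acetyltransferase gene that makes the other substrate (YNL277W, chromosome XIV, 117349 to 118826), had 21.7 in WT, with 25.6 in bas1 and 32.9 in ino4. MET2 was therefore lowest in WT and was not low in bas1 with MET17. It shares its listed position with YNL276C (13.1, 10.8 and 14.8). The MET17 level was 2.02 times the MET2 level in WT, 0.804 times in bas1 and 1.76 times in ino4.

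Of 8 G1 and vegetative growth genes, 7 were lower in bas1 than in WT, 2 of them past the 2-fold rule (CLN1 and CTS1), and CLN2 was higher at 0.14. Over all 6153 entries, 3041 were lower in bas1, and 2.34% were lower by the 2-fold rule. The median of the 8 was -0.86 in bas1 and -0.01 in ino4. Their summed FPKM was 1157 in WT, with 639 in bas1 and 1174 in ino4. None was at 0. Their part in the low MET17 and SAM1 values was not tested. The entries most like MET17 were the allantoate permease gene DAL5, STF2, the chitin synthase gene CHS2 and YOL019W, at distances from 0.07 to 0.09 among 4192 candidates. CHS2 stood at 26.4 FPKM in WT, at 12.0 in bas1 and at 37.4 in ino4.

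Sulfate reduction genes were close to each other in level in all genotypes. MET3, encoding ATP sulfurylase (YJR010W, chromosome X, 456232 to 457767), stood at 43.8 FPKM in WT, at 47.2 in bas1 and at 73.5 in ino4. MET14, encoding adenylylsulfate kinase (YKL001C, chromosome XI, 438420 to 439028), had 60.6, 51.4 and 57.1. MET16, encoding the phosphoadenylylsulfate reductase (YPR167C, chromosome XVI, 876843 to 877628), had 48.8, 76.2 and 69.1. The highest of these genes was 1.38-fold above the lowest in WT, 1.61-fold in bas1 and 1.29-fold in ino4, but the order was not the same. MET14 was the highest in WT, MET16 in bas1 and MET3 in ino4.

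Their differences from WT did not run together. MET3 was 1.68-fold higher in ino4 (log2 0.73, with 90 entries higher) and differed by 0.10 in bas1. MET16 was 1.56-fold higher in bas1 (0.63) and 1.41-fold higher in ino4 (0.49). MET14 lay slightly below WT in both, at -0.23 and -0.08. By the 2-fold rule, 0.975% of all entries were higher and 2.34% lower in bas1, and 0.683% and 1.76% in ino4. Of the 7 other genes listed for sulfate uptake and reduction, 0 were 2-fold apart in either mutant, and their medians were 0.12 in bas1 and 0.21 in ino4. The furthest from WT was MET10, a sulfite reductase subunit gene, with an FPKM of 35.8 in WT, with 35.8 in bas1 and 51.9 in ino4. MET5, the gene of the other subunit, had 9.65, 8.77 and 11.3.

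**Figure D4:**
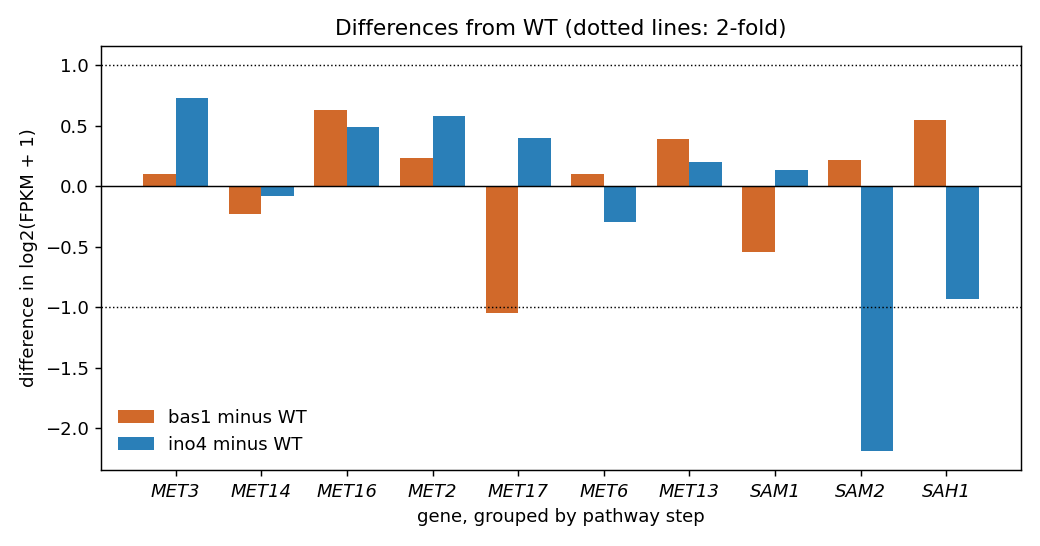
Difference from WT in log2(FPKM + 1) for the 10 genes in pathway order, bas1 in orange and ino4 in blue, both against the same WT values. Dotted lines mark the 2-fold rule. The bars past a line are MET17 in bas1 (-1.05) and SAM2 in ino4 (-2.19), with SAH1 in ino4 at -0.93 just inside it.

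Beyond the 10 genes, 48 others of sulfur metabolism and its transport and regulation were all compared. In bas1, 1 of the 48 was at least 2-fold higher and 0 were lower, with a median of 0.07. In ino4, 0 were 2-fold apart in either direction, with a median of 0.08. Over all entries, 0.975% were higher and 2.34% lower in bas1, and 0.683% and 1.76% in ino4. Nothing particular to the 48 is therefore read from these counts. The single gene of the 48 past the rule was GNP1, an amino acid permease gene that also carries methionine. Its FPKM was 131 in WT, with 279 in bas1 and 111 in ino4. Its entry shares a position with YDR509W, which had 16.7, 36.7 and 11.8. MUP1, the high-affinity methionine permease gene, had 47.5 in WT, with 68.1 in bas1 and 44.1 in ino4.

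The regulators of the pathway differed from WT by less than 2-fold. MET4, the activator gene, stood at 41.6 FPKM in WT, at 32.3 in bas1 and at 37.0 in ino4, and CBF1 had 44.2, 51.9 and 42.7. MET31 had a difference of -0.44 in bas1 and -0.05 in ino4, the furthest from WT of the 7 regulators, none of which was 2-fold apart. In transsulfuration and glutathione synthesis 0 of 6 genes were 2-fold apart. Both counts stand beside small shares over all entries, 0.975% higher and 2.34% lower in bas1, and 0.683% and 1.76% in ino4. Nothing particular to either list is read from them. STR3, the cystathionine beta-lyase gene, had 15.4 in WT and 10.2 in bas1, and GSH1, which starts glutathione synthesis, had 30.6 in WT and 42.3 in ino4.

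Over all entries, 0.975% were 2-fold higher and 2.34% lower in bas1, and 0.683% and 1.76% in ino4. In methionine salvage and polyamine synthesis 0 of 10 genes passed the rule. MRI1, which acts in the recycling of methylthioadenosine to methionine, came nearest, with 9.85 in WT, with 4.71 in bas1 and 9.59 in ino4. Its difference in bas1 was -0.92, and the plain ratio reads 2.09-fold lower. UTR4, of the same recycling route, had 73.0 in WT, with 64.1 in bas1 and 96.8 in ino4. In homoserine synthesis, HOM6, the homoserine dehydrogenase gene, had 106 in WT, with 75.1 in bas1 and 105 in ino4.

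**Figure D5:**
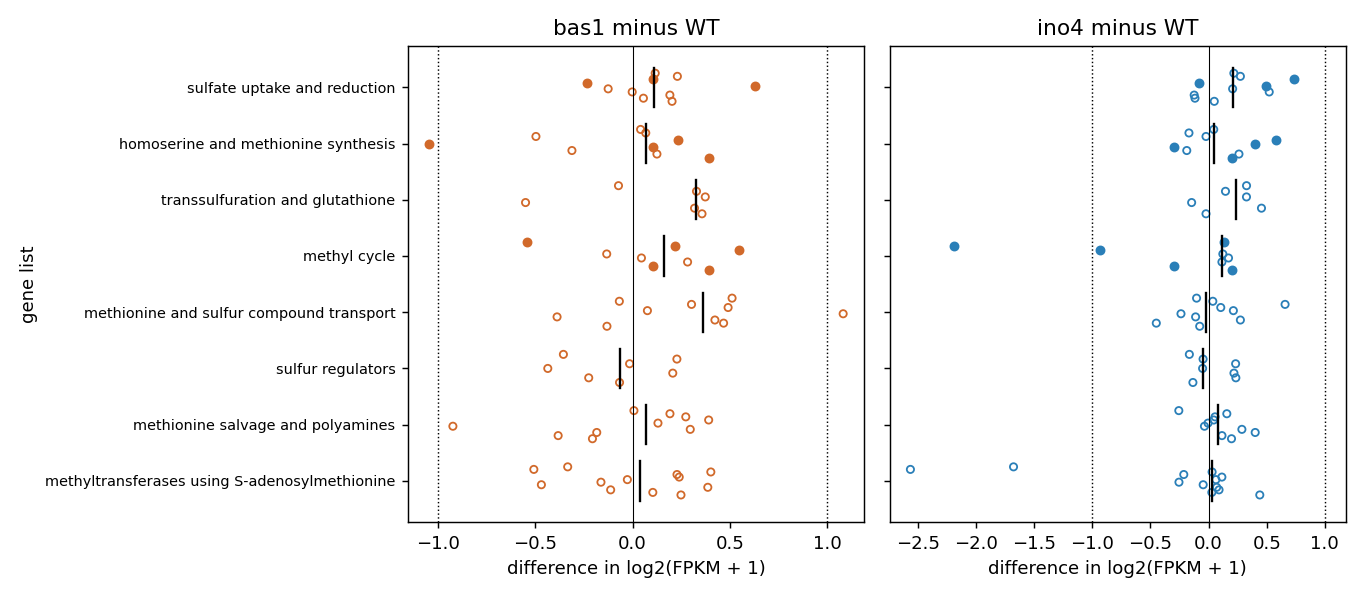
Difference from WT in log2(FPKM + 1) for genes of 8 lists, bas1 left and ino4 right, 1 point per gene, with horizontal scales that differ. Filled points are the 10 genes, open points the others, black bars list medians and dotted lines the 2-fold rule. Most open points lie inside the lines, and those outside are GNP1 in bas1 (1.08) and OPI3 (-2.56) and CHO2 (-1.68) in ino4.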

How the data were processed

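RNA came from 6 meiotic cultures (WT, bas1 and ino4, 2 samples each), with libraries from an Illumina TruSeq kit per the labels' protocols. STAR, Cufflinks and the build sacCer2 are named in the submitters' processing notes, with no version or setting given in the sources used here. FPKM values were deposited by the authors as 1 column per genotype, per the file headers, so how samples were combined is unknown, as are depth and intervals. Whole reads were looked for in FPKM times length. With the unit that suited best, 14.6% of low values per genotype came within 0.05 of a whole read, so reads were not recovered.

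Entries were kept when no genotype was at 0 and 1 or more genotypes reached an FPKM of 1, and were compared as log2(FPKM + 1) with Python 3.11.15, pandas 2.3.3 and numpy 2.4.6. An exact 0 can be a failed estimate. Those left out included 605 entries at 0 in every genotype and 87 at 0 in only some. The steps were tested on simulated data. The 10 genes, the lists, the 2-fold rule and the alternatives were chosen with earlier results of these data known. Named genes were the 10, pathway pairs, and in each list those 2-fold apart from WT or otherwise the 2 furthest from it. The haploid mating genes MFA1 and STE3 were named as 2-fold apart between the mutants. SPO11, STE2, STE4, FUS3, CLN2, ADO1, ERG6, CBF1, MET5 and the flanking genes were named after their values were seen. Likeness was the Euclidean distance of the differences from WT in bas1 and ino4, over entries of FPKM at least 20 in WT that share no position, and the 5 nearest were eligible. Of 114 list genes 113 matched an entry by symbol or synonym (RefSeq, assembly R64). Positions are those of the table, counted from 1, and R64 coordinates were not used. Identity and 30-base words were computed from R64 genes with biopython 1.88.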

Additional observations from a re-analysis of the deposited data

How the results depend on the processing

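Of the 10 settings tried, only the 3 scalings could turn the direction of a difference, and they moved the median of all entries by at most 0.026. Among their 90 values for the 10 genes, 0 changed sign. Over all settings, 6 of 294 values crossed the rule in use. SAM2 in ino4 ranged from -2.21 to -2.10, SAH1 in ino4 from -0.94 to -0.89 and MET17 in bas1 from -1.08 to -0.93. Scaling by medians, quantiles or a trimmed mean of log ratios moved no count of the 10 genes.

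With a pseudocount of 5, 0 of the 10 genes were 2-fold lower in bas1, and over all entries 33 were higher and 91 lower in bas1, and 16 higher and 56 lower in ino4. A pseudocount of 0.1 took the other pathway genes apart to 2 in bas1 against WT and 2 in bas1 against ino4.

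With a 1.5-fold rule, the 10 genes gave 1 higher and 1 lower in bas1, and 1 higher and 2 lower in ino4. In bas1 against ino4 they gave 2 higher and 3 lower. The other pathway genes gave 2 in bas1, 1 in ino4 and 5 between the mutants. Over all entries it gave 245 higher and 451 lower in bas1, 143 and 284 in ino4, and 418 and 506 between the mutants.

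Entries that share no position leave out MET17 and MET2. Then 0 of the remaining genes were 2-fold lower in bas1 against WT or ino4, 0 other pathway genes passed in bas1 against WT or ino4, 22 entries were higher in ino4, and the median difference was 0.027 (ino4 against WT) and 0.17 (bas1 against ino4). With no replicate spread, a median was taken as moved from 0.1 on. No paired analysis was possible because the columns carry 1 value per genotype, and leaving out a replicate was not run for the same reason.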
